A study of Mus musculus with 4 samples.

Results

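The histone genes of mouse meiotic prophase cells are described here, as they were measured by RNA-seq in sorted male germ cells labelled *Zfp541*+/- or *Zfp541* KO. They were taken by gene symbol, as every row of the deposited tables named for the histone clusters *Hist1* to *Hist4*, together with *H1f0*, the *H2af* genes other than *H2afx*, the *H3f3* genes and *H2bfm*. This gave 81 of the 24411 rows listed for each library. Of the 81, 65 were cluster genes for common histones (the pseudogene *Hist3h2bb-ps* among them), 13 were genes of replacement and related variants (*H2bfm* is counted among them), and 3 were the testis-specific cluster genes *Hist1h1t*, *Hist1h2ba* and *Hist1h2aa*. The rule reads the symbol and no expression value.

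Histones are made along separate routes. Replication-dependent genes lie in clusters, are transcribed in S phase to package newly copied DNA, and yield mRNAs that end in a short stem-loop, bound by SLBP, in place of a poly(A) tail. Replacement variants such as H3.3 and H2A.Z come from ordinary genes with introns and polyadenylated mRNAs, and are made outside S phase too. Male germ cells add their own variants, among them H1t, TH2A and TH2B, which enter the chromatin of spermatogonia or spermatocytes before histones give way to transition proteins and protamines.

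ZFP541 is a germ cell zinc finger protein, and the study asked how gene expression in meiotic prophase differs without it. GFP-positive cells were sorted from testes at postnatal day 18, when the first spermatocytes have reached pachytene. All 4 libraries came from mice with a *Rec8-3xFLAG-HA-p2A-GFP* knock-in, in which GFP marks cells that make the meiotic cohesin REC8. There were 2 control libraries (*Zfp541*+/-, thus heterozygous and not wild type) and 2 labelled *Zfp541* KO. Per the design text, 1 control testis carried the knock-in on 1 allele and the other control on both, and the 2 KO testes carried it on both, so knock-in dose was not matched between the groups. Which control was which is not given in the sources used here. The strain is C57BL/6 and CBA mixed by the sample labels and C57BL/6 by the study's methods, with a deletion allele from exon 1 into intron 13. RNA was prepared with a poly(A)-selecting kit, so for genes whose mRNA normally lacks a tail the values give the polyadenylated RNA that was captured, not the full amount in the cell.

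Expression was deposited as TPM, an RSEM transcript abundance corrected for length, with a common total in every library. Levels of different genes can thus be compared on this scale only as captured polyadenylated RNA. Depth is unknown and no counting interval can be given. *Zfp541* itself had 112 TPM in control 1, 72.2 TPM in control 2, and 136 and 151 TPM in libraries 1 and 2 labelled *Zfp541* KO. The transcript was not lower with the label, so each direction below rests on the label alone. Its difference was 0.67 on the log2 scale (standard error 0.28, limma adjusted p = 0.371), and 0.35 to 0.98 with a library left out. TPM per gene does not tell exons inside the deletion from those outside.

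The sorted cells carried markers of meiotic prophase, together with macrophage and Leydig markers at levels that differed between libraries. The summed TPM of 10 leptotene and zygotene genes was 2403 and 3080 in control libraries and 4833 and 5083 in KO-labelled libraries, and that of 11 expressed pachytene genes was 8815 and 4335 against 3241 and 4461. Control 2 stood apart from the other libraries. Its 6 macrophage markers summed to 28.7 TPM against 1574 to 2532 in the other 3 libraries, and its 6 Leydig markers to 18.0 TPM (*Lhcgr* listed at 0) against 332 to 2910. All 6 markers of both lists were above 0 in each of the other 3 libraries. Its 10 spermatogonial markers summed to 1009 TPM, the highest of the 4, with control 1 lowest at 340 TPM and the KO-labelled libraries at 698 and 509 TPM. In sorted cells measured in bulk, fewer cells of a type and less RNA per cell cannot be told apart.

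The feature that sets the replication-dependent genes apart can be read in their transcripts. The histone 3′ stem-loop, a 16-base consensus with 6 paired bases in the stem, was searched on the transcript strand of the GENCODE vM21 models of the 81 genes (GRCm38, the assembly UCSC calls mm10). It was found past the stop codon in 46 of them (56.8%), namely 44 cluster genes, *Hist1h1t* and *H2bfm*. Of all 55450 GENCODE genes, 0.117% held it in any transcript, and 18 of these were not among the 81. It lay 21 to 58 bases after the stop codon, with a median of 31.5, and took 8 forms. The most frequent form was shared by 26 genes of all classes but H4, while another was found in 7 H4 genes and no gene of another class. The sequences below belong to the genes on which the results turn. Capitals mark the stem-loop and lower case the 5 bases on either side, as far as the transcript model goes.

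*Hist1h2ap* (chr13:21833026-21833049, minus strand): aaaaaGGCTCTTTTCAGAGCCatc
*Hist1h2ao* (chr13:21810893-21810918, plus strand): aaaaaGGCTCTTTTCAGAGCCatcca
*Hist2h2aa1* (chr3:96246027-96246052, plus strand): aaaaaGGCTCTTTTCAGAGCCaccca
*Hist2h2ac* (chr3:96220413-96220438, minus strand): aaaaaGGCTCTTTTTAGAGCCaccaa
*Hist3h2a* (chr11:58955167-58955192, plus strand): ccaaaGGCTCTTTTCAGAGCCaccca
*Hist2h3c2* (chr3:96238480-96238505, minus strand): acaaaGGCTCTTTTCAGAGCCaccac
*Hist1h4c* (chr13:23698084-23698109, minus strand): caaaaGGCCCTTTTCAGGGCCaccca
*Hist1h1t* (chr13:23696520-23696545, plus strand): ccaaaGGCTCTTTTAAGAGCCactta
*H2bfm* (chrX:136928066-136928091, plus strand): ccaaaGGCTCTTTTCAGAGCCaccac

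The models of *Hist1h2ap*, *Hist1h2ao* and *Hist2h2aa1* stop 3, 31 and 35 bases after the stem-loop. Those of *Hist1h4c*, *Hist2h3c2* and *Hist3h2a* run on for 454, 377 and 1643 bases. No stem-loop was found in the models of *Hist1h2bc* and *Hist2h2be* or of the replacement variants other than *H2bfm*. The models of *H2afb1*, *H2afb2* and *H2afb3*, like those of *Hist1h2ba* and *Hist1h2aa*, hold no 3′ UTR in which to look. A match is a description of the letters in the model and does not show which end the cell used.

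Most of the histone TPM came from 3 replacement genes. *H3f3b* was the highest of the 81, at 1425 and 1500 TPM in control libraries and 1693 and 1763 TPM in KO-labelled libraries. *H3f3a*, which encodes the same H3.3 protein, was at 933 and 1072 TPM in control libraries and 1054 and 1080 TPM in KO-labelled libraries. *H2afz*, the main H2A.Z gene, was at 894 and 1142 TPM and at 1032 and 1001 TPM. *H3f3b* was above the other 2 in each library, while the levels of *H3f3a* and *H2afz* overlapped and their order was not resolved. Together the 3 genes made up 75.0% and 65.8% of the TPM of all 81 genes in the controls, and 78.1% and 79.0% in KO-labelled libraries. The 61.7% of *H2afz* windows of 75 bases, the read length, that also occur in other GENCODE transcripts leave part of its reads open to being split between genes by the counting.

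The 65 cluster genes were mostly at or near 0. In the 4 libraries 11 of them, such as *Hist1h1d*, *Hist1h3d* and *Hist1h4m*, were listed at 0 throughout, 23 had a mean above 0 but under 1 TPM, and 31 reached a mean of 1 TPM. The number above 0 in all 4 libraries was 19. Only 5 had a mean over 20 TPM: the H2A genes *Hist1h2ap*, *Hist2h2aa1*, *Hist3h2a* and *Hist1h2ao*, and the H2B gene *Hist1h2bc*. By class, a mean of 1 TPM was reached by 2 of 5 H1 genes, 6 of 17 H2A genes, 9 of 18 H2B genes, 6 of 12 H3 genes and 8 of 13 H4 genes. H2A genes supplied 71.3% and 88.7% of the TPM of the cluster genes in the controls, and 76.2% and 77.0% in KO-labelled libraries.

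Levels were also set beside the ends of the transcript models. Of the 19 cluster genes whose models end within 50 bases of the stem-loop, 12 reached 1 TPM, and their median of mean TPM was 1.3. Of the 25 whose models run further, 12 did, with a median of 0.80 TPM, and of the 9 without a stem-loop 5 did, with a median of 1.19 TPM. The models of 11 others hold no 3′ UTR, and 1 of these reached 1 TPM, with a median of 0.37 TPM. The pseudogene has a non-coding model. The highest genes of the first 3 sets were *Hist1h2ap* (317 TPM), *Hist3h2a* (41.1 TPM) and *Hist1h2bc* (45.5 TPM).

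**Figure D1:**
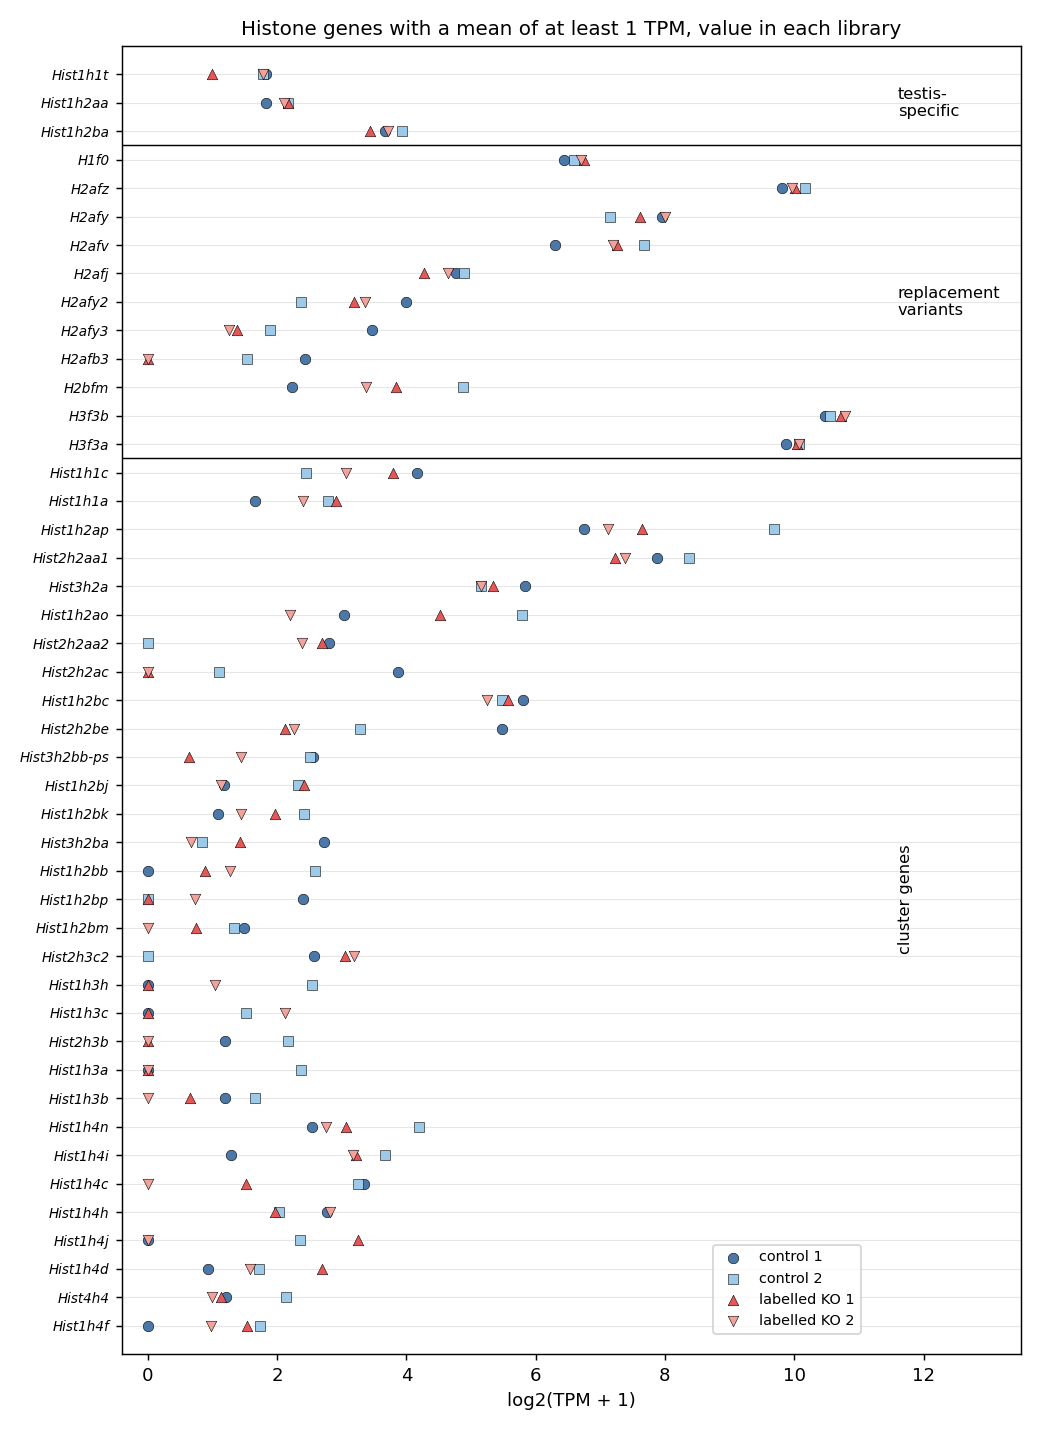
Level of each of the 45 histone genes whose mean reached 1 TPM, as log2(TPM + 1) on the x axis, with 1 symbol for each library (circles and squares, controls 1 and 2; triangles, libraries labelled *Zfp541* KO 1 and 2). *H3f3b*, *H3f3a* and *H2afz* lie highest. *Hist1h1t* and *Hist1h2aa* lie among the low cluster genes, while *Hist1h2ba*, at a mean of 12.0 TPM, lies above most cluster genes drawn. Control 2 lies far to the right of the others for *Hist1h2ap* and *Hist1h2ao*.

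Genes were compared between the groups by limma on log2(TPM + 1), over the 14512 genes whose mean reached 1 TPM, with Benjamini-Hochberg adjustment at an FDR of 0.05. Among the 81 histone genes 45 passed this filter, made up of 31 cluster genes, 11 replacement genes and the 3 testis-specific genes. None of the 45 passed the FDR, and neither did any of the 14512 genes (0%). Adjusted p from limma for the 45 ranged from 0.310 to 0.998. At an unadjusted p under 0.05 there were *Hist1h4c*, *Hist2h2aa1*, *Hist2h3b*, *Hist3h2bb-ps* and *H2afb3*, all lower in KO-labelled libraries. *Hist1h4c*, *Hist2h3b* and *H2afb3* had a mean under 1 TPM in those libraries and passed the filter only through the controls, which favours a lower value. The share, 5 of the 45 histone genes, was not above the 14.4% of all genes. That no gene passed the FDR depended on the controls, since genes did pass with either control left out. In those fits the lone control is assumed to vary like the other group, so only effect sizes are given. Without control 1 and without control 2, the log2 fold change was -1.07 and -0.57 for *Hist2h2aa1*. For *Hist2h2be* it was -1.09 and -3.29. That of *H2afv* changed sign, from -0.45 without control 1 to 0.94 without control 2. With 2 libraries a group, the labels of a single gene can be divided in 6 ways, and the smallest two-sided exact permutation p is 0.333. The design text counts a testis for each library, and all p-values here measure the spread between these 4 libraries.

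The groups did not overlap for 15 of the 45. In 3 genes both KO-labelled libraries were above both controls, where 38.6% of all genes tested were so, and in 12 both were below, where 12.1% were. After median-ratio scaling this became 1 above and 16 below, against 23.1% and 22.3% of all genes, and after quantile normalization 4 and 14, against 27.8% and 19.4%. Some of the 45 passed the filter only through the group in which they were higher, so a stricter filter was also used. Among the 35 with a mean of at least 1 TPM in each group, 3 were above (8.57%) and 6 below (17.1%), against 39.1% and 11.2% of 13770 genes chosen the same way. With 1 library left out a lone library overlaps less easily, so non-overlapping genes are not counted for those settings. The median log2 fold change was 0.28 over all genes tested and -0.46 over the 31 cluster genes, 0.093 over the 11 replacement genes and -0.23 over the 3 testis-specific genes. Median-ratio scaling of the TPM moved the first 3 medians to -0.0044, -0.75 and -0.23, so the replacement genes lay above 0 on the deposited scale and below 0 after that scaling.

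**Figure D2:**
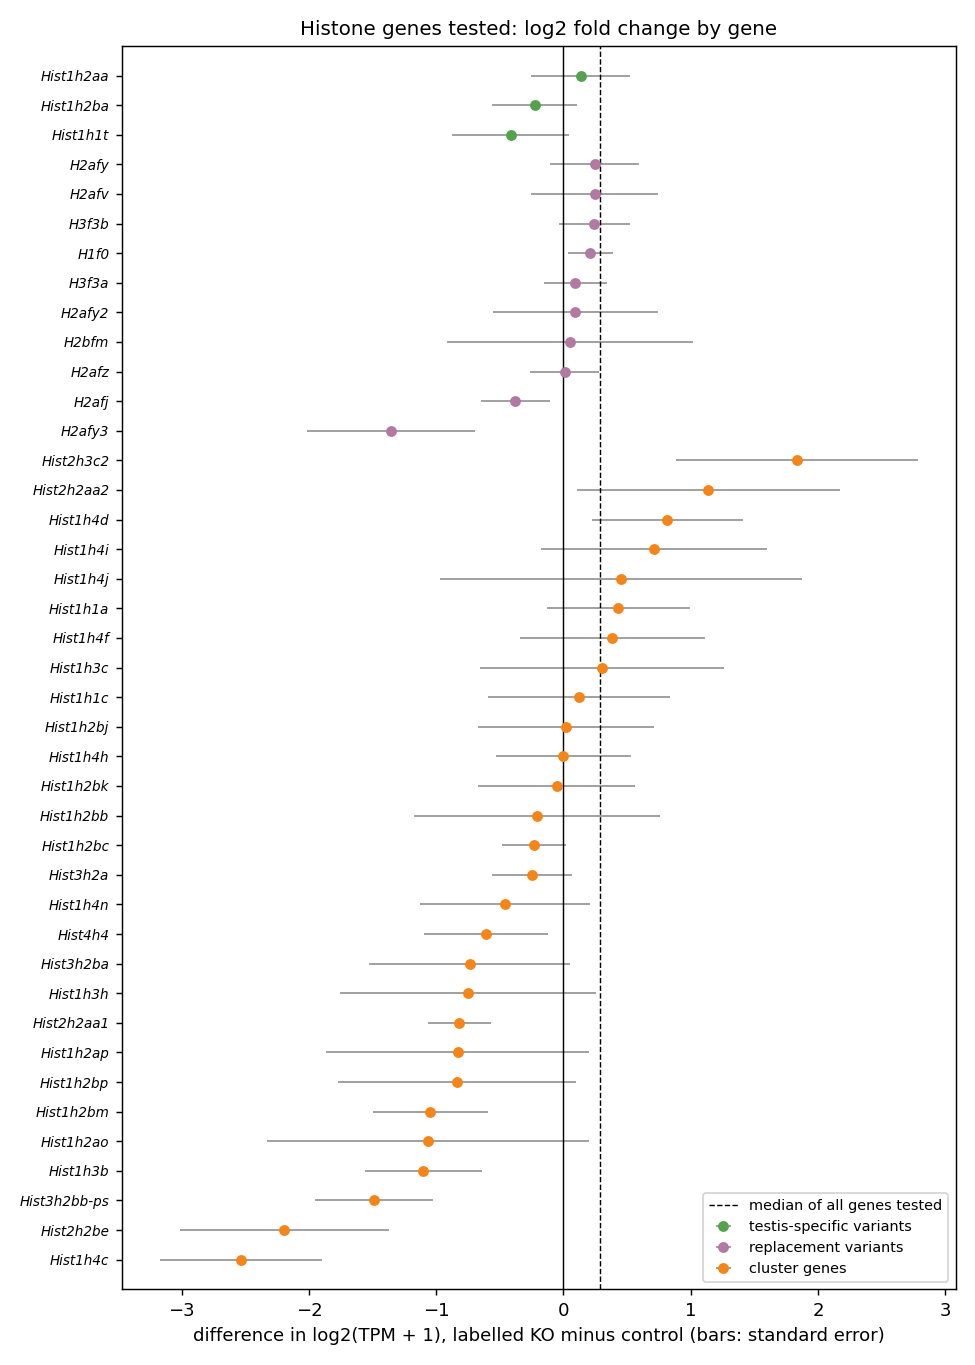
Log2 fold change of 41 histone genes on the log2(TPM + 1) scale (x axis, libraries labelled *Zfp541* KO minus controls, bars for the standard error, n = 2 in each group), by kind of gene. The 4 tested genes listed at 0 in both libraries of a group are not drawn. The dashed line is the median of all 14512 genes tested, 0.28, which median-ratio scaling moves to -0.0044, and most cluster genes lie to the left of it.

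The testis-specific genes lay close together in the 2 groups. *Hist1h2ba* encodes TH2B, the germ cell form of H2B, and was at 11.8 and 14.3 TPM in control libraries and 9.87 and 12.1 TPM in KO-labelled libraries. *Hist1h2aa*, for its partner TH2A, was at 2.55 and 3.51 TPM in control libraries and 3.48 and 3.31 TPM in KO-labelled libraries. *Hist1h1t*, for the linker histone H1t that spermatocytes accumulate during pachytene, was at 2.55 and 2.44 TPM and at 1.00 and 2.44 TPM. The groups overlapped or touched for all 3, and the only low value was that of *Hist1h1t* in the library labelled KO 1.

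*Hist1h2ba* was the highest of the 3 in each library. Its log2 fold change was -0.23 (limma, standard error 0.33, adjusted p = 0.767), that of *Hist1h1t* was -0.41 (0.46, adjusted p = 0.691, and -0.81 to -0.023 with a library left out), and that of *Hist1h2aa* was 0.14 (0.39, adjusted p = 0.891). The value of *Hist1h2aa* turned negative under median-ratio scaling (-0.12), quantile normalization (-0.11) and without control 1 (-0.038). *Hist1h2ba* and *Hist1h2aa* lie head to head on chromosome 13 with 305 bases between them, and their mean levels over the 4 libraries were 12.0 and 3.21 TPM. *Hist1h2ba* shares 33.2% of its windows with other cluster genes, *Hist1h1t* none with any transcript.

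Set against the other histone genes, the 3 testis-specific genes were a small part of the captured polyadenylated RNA. The model of *Hist1h1t* holds a stem-loop, and those of *Hist1h2ba* and *Hist1h2aa* hold no 3′ UTR. How much of their RNA was captured was not tested. Their sum was 18.5 TPM (SD 2.38, n = 2) in control libraries and 16.1 TPM (SD 2.46, n = 2) in KO-labelled libraries. This was 0.389% and 0.358% of the TPM of all 81 genes in the controls, and 0.297% and 0.366% in KO-labelled libraries. The difference in share was -0.042 percentage points, within the spread of the libraries. The cluster genes as a whole took 13.8% and 24.9% of the TPM in control libraries and 11.4% and 9.37% in KO-labelled libraries, so that both controls were above both KO-labelled libraries. The replacement genes took 85.8% and 74.8%, and 88.3% and 90.3%.

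**Figure D3:**
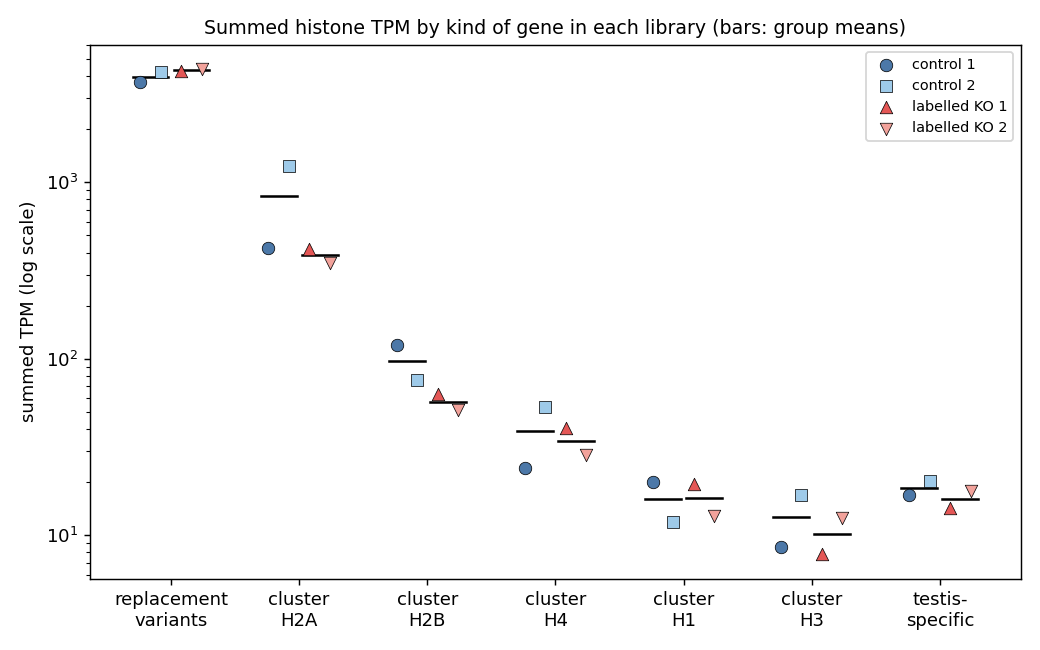
Summed TPM of the replacement genes, the cluster genes of each histone class and the testis-specific genes (y axis, log scale), with 1 symbol for each library and a bar at each group's mean (n = 2). The cluster H2B sums of both controls lie above those of both libraries labelled *Zfp541* KO, and the H2A sum of control 2 (1244 TPM) lies far above the other 3 (351 to 427 TPM).

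Cluster genes were lower in sum in KO-labelled libraries, but a single control carried much of this. All 65 summed to 599 and 1402 TPM in control libraries and 551 and 456 TPM in KO-labelled libraries, a log2 ratio of -0.99 that was -0.25 without control 2. *Hist1h2ap*, a replication-dependent H2A gene on chromosome 13, was at 106 and 823 TPM in control libraries and 199 and 138 TPM in KO-labelled libraries. *Hist1h2ao*, a near copy that shares 93.1% of its windows with *Hist1h2ap*, was at 7.21 and 54.5 TPM and at 21.9 and 3.57 TPM, and the split of reads between this pair is uncertain. Summed, the pair was 7.74 times as high in control 2 as in control 1. The log2 fold change of *Hist1h2ap* was -0.83 (standard error 1.04, adjusted p = 0.726, limma) and turned to 0.64 without control 2.

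*Hist1h2ap* stood in the order control 2, KO 1, KO 2, control 1, which is also the order of the spermatogonial marker sum. The S phase genes gave the same order, with 25 genes that summed to 1543 and 2437 TPM in control libraries and 2383 and 2221 TPM in KO-labelled libraries. Among the spermatogonial markers *Uchl1*, *Dmrt1*, *Sall4* and *Sohlh1* had this order and the others did not. *Kit* and *Zbtb16* were lowest in control 2. *Hist1h2ao* had another order too, with control 1 (7.21 TPM) above KO 2 (3.57 TPM). The part of dividing cells in the level of *Hist1h2ap* was not tested.

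Without this pair, the other 63 cluster genes summed to 486 and 525 TPM in control libraries and 330 and 314 TPM in KO-labelled libraries. The control mean of 505 TPM (SD 27.5, n = 2) was 1.57 times the mean of 322 TPM (SD 11.3, n = 2) in KO-labelled libraries. The pair was set aside after its values were seen. Most of this remaining difference was that of a single gene, *Hist2h2aa1*.

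*Hist2h2aa1*, an H2A gene of the *Hist2* cluster on chromosome 3, was at 233 and 329 TPM in control libraries and 149 and 165 TPM in KO-labelled libraries. The groups did not overlap, and the control mean of 281 TPM (SD 68.0, n = 2) was 1.79 times the other, 157 TPM (SD 11.2, n = 2). Its log2 fold change was -0.82 (limma, standard error 0.25, adjusted p = 0.319), and stayed between -1.07 and -0.57 with any library left out. Every window of *Hist2h2aa1* recurs in the GENCODE gene *Gm20633*, and 88.7% recur in other genes of the 81. *Hist2h2aa2*, its paralogue in the same cluster, was listed at 6.01 and 0 TPM in control libraries and 5.48 and 4.24 TPM in KO-labelled libraries (log2 fold change 1.14, or -0.27 without control 2). Their sum, which does not depend on the split between these 2 genes, was 239 and 329 TPM in control libraries and 155 and 169 TPM in KO-labelled libraries.

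The *Hist2* cluster as a whole summed to 305 and 343 TPM in control libraries and 168 and 183 TPM in KO-labelled libraries, 1.85 times as high in the controls. The larger *Hist1* cluster was at 226 and 1016 TPM in control libraries and 339 and 235 TPM in KO-labelled libraries, and *Hist3* at 66.5 and 39.9 TPM and at 41.7 and 36.9 TPM. Both of these overlapped between the groups. *Hist4*, with the single gene *Hist4h4*, was at 1.32 and 3.38 TPM in control libraries and 1.20 and 0.98 TPM in KO-labelled libraries. Its groups did not overlap, at values near the filter. No test was made of the difference between the clusters.

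Other genes of the *Hist2* cluster were also lower, at small values. *Hist2h2be*, an H2B gene whose model holds a long 3′ UTR, was at 43.8 and 8.77 TPM in control libraries and 3.36 and 3.80 TPM in KO-labelled libraries. The log2 fold change was -2.19 (limma, standard error 0.82, adjusted p = 0.347), and -1.09 to -3.29 with a library left out, the first without control 1. *Hist2h2ac*, which faces it across 238 bases, was at 13.7 and 1.15 TPM in control libraries and was listed at 0 in both KO-labelled libraries. Control 1 was the highest for both genes, as it was for the Leydig markers (2910 TPM against 18.0 in control 2 and 332 and 504 in KO-labelled libraries). Control 2 was above the KO-labelled libraries for both genes, but lowest for the Leydig markers. Control 1 was also highest for the pachytene, round spermatid, elongating spermatid and macrophage sums. The part of other cells in the levels of both genes was not tested. *Hist2h3b*, an H3 gene, was at 1.28 and 3.49 TPM in control libraries and listed at 0 in KO-labelled libraries.

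The tested cluster gene with both KO-labelled libraries above both controls was *Hist2h3c2*, an H3 gene of the same cluster, at 4.91 and 0 TPM in control libraries and 7.24 and 8.09 TPM in KO-labelled libraries. Its log2 fold change was 1.83 (limma, standard error 0.95, adjusted p = 0.432), which was 0.55 without control 2 and 3.11 without control 1. It shares 62.6% of its windows with other transcripts, so part of its reads may be counted elsewhere.

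In the *Hist1* cluster, the H4 gene *Hist1h4c* had the lowest log2 fold change of those drawn. It was at 9.11 and 8.47 TPM in control libraries and at 1.85 and 0 TPM in KO-labelled libraries, so the groups did not overlap. The log2 fold change was -2.54 (limma, standard error 0.64, adjusted p = 0.310), and -3.29 to -1.78 with a library left out. Among the other H4 genes tested, only *Hist4h4* was also lower without overlap, and the rest had another order. *Hist1h4n* was at 4.80 and 17.4 TPM in control libraries and 7.38 and 5.74 TPM in KO-labelled libraries. *Hist1h4i* was at 1.45 and 11.8 TPM and at 8.27 and 8.07 TPM, and *Hist1h4d* at 0.91 and 2.29 TPM and at 5.50 and 2.00 TPM, with log2 fold changes of 0.71 (-0.48 without control 1) and 0.82. All 3 overlapped between the groups, and so did the H4 sum, at 24.2 and 53.4 TPM against 40.3 and 28.4 TPM. *Hist1h4j* was at 4.13 TPM in control 2 and 8.57 TPM in KO 1 and listed at 0 in control 1 and KO 2.

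The remaining H2B and H2A genes over 20 TPM overlapped between the groups. *Hist1h2bc*, whose model has 2 exons and no stem-loop, was at 54.6 and 43.8 TPM in control libraries and 46.8 and 36.9 TPM in KO-labelled libraries (log2 fold change -0.23 with a standard error of 0.25, limma adjusted p = 0.683). *Hist3h2a* was at 56.0 and 34.4 TPM and at 39.4 and 34.6 TPM (log2 fold change -0.24, or 0.10 without control 1). Across 172 bases from *Hist3h2a* lies the pseudogene *Hist3h2bb-ps*, at 4.89 and 4.68 TPM in control libraries and 0.56 and 1.72 TPM in KO-labelled libraries, with a log2 fold change of -1.49 (limma, standard error 0.46, adjusted p = 0.320, and -1.89 to -1.09 with a library left out). The groups of *Hist3h2bb-ps* did not overlap, whereas those of *Hist3h2a* and *Hist1h2bc* did. The cluster H2B genes summed to 119 and 76.1 TPM in control libraries and 63.2 and 51.2 TPM in KO-labelled libraries.

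The cluster genes for H1 and H3 were low in every library. The linker gene *Hist1h1c* was at 16.9 and 4.45 TPM in control libraries and 12.8 and 7.38 TPM in KO-labelled libraries, and *Hist1h1a* at 2.15 and 5.93 TPM and at 6.53 and 4.26 TPM. *Hist1h1e* was at 1.13 and 1.53 TPM in control libraries and at 0 and 0.54 TPM in KO-labelled libraries, and did not reach the filter. *Hist1h3h* and *Hist1h3c*, the highest H3 genes after *Hist2h3c2*, were listed at 0 in control 1 and KO 1, and were at 4.81 and 1.85 TPM in control 2 and 1.06 and 3.33 TPM in KO 2. The H3 genes of the clusters summed to 8.61 and 16.9 TPM in control libraries and 7.81 and 12.5 TPM in KO-labelled libraries, beside 933 to 1763 TPM for *H3f3a* and *H3f3b*.

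Sequence shared between genes limits these values. Of the 65 cluster genes, 27 share at least 50% of their windows with another of the 81 genes and 7 at least 90%, with a median of 41.1%. *Hist1h2bq* and *Hist1h2br* had the same value in each library, 0.13 and 0.39 TPM in control libraries and 0.53 and 0.59 TPM in KO-labelled libraries, and count as 1 measurement. There were 13 head-to-head pairs within 500 bases, 172 to 305 bases apart, and both partners were tested in only 3 of them.

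Of the 11 replacement variants tested, 6 overlapped between the groups, 2 were higher and 3 lower in both KO-labelled libraries, where 38.6% of all genes were higher and 12.1% lower. The higher genes were *H3f3b* (log2 fold change 0.24 with a standard error of 0.28, limma adjusted p = 0.704) and the linker gene *H1f0* of differentiated cells (0.21, standard error 0.18, adjusted p = 0.601), and both turned negative under median-ratio scaling, to -0.085 and -0.11. *H1f0* was at 85.9 and 95.1 TPM in control libraries and 106 and 103 TPM in KO-labelled libraries. *H3f3a* had a log2 fold change of 0.094 (adjusted p = 0.880, limma) and *H2afz* of 0.0084 (adjusted p = 0.991), and both were negative under median-ratio scaling (-0.23 and -0.32) and without control 1 (-0.0065 and -0.17).

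*H2afv*, the second H2A.Z gene, was at 77.5 and 203 TPM in control libraries and 152 and 146 TPM in KO-labelled libraries. *H2afy*, for macroH2A1, a large variant of silent chromatin and the XY body, was at 248 and 142 TPM in control libraries and 194 and 255 TPM in KO-labelled libraries. The controls thus lay on either side for *H2afv*, and *H2afy* overlapped too. The log2 fold changes of 0.24 and 0.25 became -0.080 and -0.078 under median-ratio scaling, and -0.45 for *H2afv* without control 1 and -0.16 for *H2afy* without control 2. *H2afy2*, for macroH2A2, was at 14.9 and 4.18 TPM in control libraries and 8.15 and 9.26 TPM in KO-labelled libraries. *H2bfm* was at 3.70 and 28.3 TPM and at 13.3 and 9.35 TPM, again with the KO-labelled libraries between the controls.

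The lower genes were *H2afj*, *H2afy3* and *H2afb3*. *H2afj*, for H2A.J, was at 26.4 and 28.8 TPM in control libraries and 18.4 and 23.9 TPM in KO-labelled libraries (log2 fold change -0.38 with a standard error of 0.27, limma adjusted p = 0.547). *H2afy3*, annotated as a processed pseudogene, was at 10.1 and 2.69 TPM in control libraries and 1.61 and 1.39 TPM in KO-labelled libraries (log2 fold change -1.36 with a standard error of 0.66, limma adjusted p = 0.411, and -2.15 to -0.56 with a library left out). *H2afb3*, for the short variant H2A.B of spermatogenic cells, was at 4.40 and 1.90 TPM in control libraries and listed at 0 in both KO-labelled libraries, while *H2afb1* and *H2afb2* were listed at 0 in all 4. Control 1 was the highest for *H2afy3* and *H2afb3*, as it was for the sums of the pachytene markers and of the 8 round spermatid markers (134 TPM, against 55.9 in control 2 and 49.8 and 53.4 in KO-labelled libraries, with *Tex29* listed at 0). Only 3 of these 8 were tested. *Acr* (118 and 36.5 TPM in control libraries and 18.0 and 21.9 TPM in KO-labelled libraries) and *Tssk1* were highest in control 1. *Spaca1* was lowest there, at 7.34 and 13.9 TPM in control libraries and 27.0 and 26.6 TPM in KO-labelled libraries. The part of later cells was not tested.

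Genes that serve the histone mRNAs were next compared, from a list of 15, all tested. In 10 both KO-labelled libraries were above both controls and in 1 both were below, against 38.6% and 12.1% of all genes, with a median log2 fold change of 0.44 against 0.28 for all genes. The median was 0.12 after median-ratio scaling and 0.25 after quantile normalization, where that of all genes was -0.0044 and 0.077. None passed the FDR (adjusted p from limma 0.310 to 0.751). *Npat*, which drives transcription of the histone clusters, was at 21.5 and 16.7 TPM in control libraries and 42.8 and 35.7 TPM in KO-labelled libraries (log2 fold change 1.01 with a standard error of 0.27, limma adjusted p = 0.315). *Slbp*, for the stem-loop binding protein, was at 241 and 251 TPM and at 327 and 345 TPM (log2 fold change 0.45 with a standard error of 0.18, limma adjusted p = 0.365), the fold change being 0.12 after median-ratio scaling. *Casp8ap2*, for the processing factor FLASH, was at 27.4 and 26.3 TPM and at 55.9 and 49.8 TPM. With a library left out the log2 fold change was 0.83 to 1.18 for *Npat*, 0.41 to 0.49 for *Slbp* and 0.87 to 1.03 for *Casp8ap2*. The list's groups lay opposite to those of the cluster sum, whose KO-labelled libraries were below the controls. *Lsm10*, for a core protein of the U7 particle that cuts histone mRNA, was the exception, at 58.7 and 52.8 TPM in control libraries and 32.2 and 38.2 TPM in KO-labelled libraries (log2 fold change -0.65 with a standard error of 0.22, limma adjusted p = 0.327, and -0.77 to -0.53 with a library left out), while its partner *Lsm11* was at 3.62 and 5.16 TPM and at 7.42 and 9.19 TPM.

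Of 25 histone chaperones, 14 were above and 0 below both controls in both KO-labelled libraries, against 38.6% and 12.1% of all genes. Their median log2 fold change was 0.38, or 0.053 after median-ratio scaling and 0.29 after quantile normalization, and none passed the FDR. *Anp32e*, which removes H2A.Z from chromatin, was at 39.6 and 29.6 TPM in control libraries and 84.6 and 91.5 TPM in KO-labelled libraries. *Supt6*, a chaperone that travels with RNA polymerase II, was at 101 and 61.2 TPM and at 184 and 220 TPM. Their log2 fold changes were both 1.34, or 1.13 to 1.54 for *Anp32e* and 0.98 to 1.70 for *Supt6* with a library left out. That of *Ubn2*, a part of the HIRA complex, was 1.12, or 0.50 to 1.75 with a library left out. *Hira*, for another part of this complex, which deposits H3.3, was at 26.3 and 28.9 TPM in control libraries and 41.5 and 40.4 TPM in KO-labelled libraries, and *Cabin1* at 36.2 and 30.0 TPM and at 65.4 and 75.0 TPM. *Chaf1a* and *Chaf1b*, of the CAF-1 complex that serves replication, were at 92.9 and 54.9 TPM and at 20.8 and 37.1 TPM in control libraries, and at 69.9 and 80.0 TPM and at 21.9 and 21.4 TPM in KO-labelled ones, so both overlapped.

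Of the 25 S phase genes, 7 were above and 0 below, against 38.6% and 12.1% of all genes. Their median log2 fold change of 0.35 was 0.030 after median-ratio scaling and -0.046 without control 1, and none passed the FDR. *Pcna*, the replication clamp, was between 384 and 428 TPM in all 4 libraries. *Mcm4*, of the replicative helicase, was at 28.1 and 37.6 TPM in control libraries and 63.9 and 57.7 TPM in KO-labelled libraries (log2 fold change 0.88). *Fen1*, which trims lagging strands, had a log2 fold change of 0.71. With a library left out the log2 fold change was 0.68 to 1.09 for *Mcm4* and 0.20 to 1.21 for *Fen1*. The cluster sum and the S phase sum thus had the groups in different order, the first with both controls highest and the second with control 1 lowest.

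Histone genes that the symbol rule left out were read for comparison, 6 in number. Of the 4 tested none had groups that did not overlap, and their median log2 fold change was 0.0087. *H2afx*, for H2A.X, the variant phosphorylated at DNA breaks and on the XY body, was at 206 and 329 TPM in control libraries and 290 and 267 TPM in KO-labelled libraries. *Cenpa*, for the centromeric H3 variant, was at 36.7 and 84.5 TPM and at 58.2 and 47.2 TPM, and *H1fx* at 230 and 351 TPM and at 298 and 270 TPM. In all 3 the KO-labelled libraries lay between the controls. The spermatid linker gene *Hils1* was at 2.44 and 0 TPM and at 1.11 and 0.68 TPM, and *H1fnt* was listed at 0 in all 4.

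**Figure D4:**
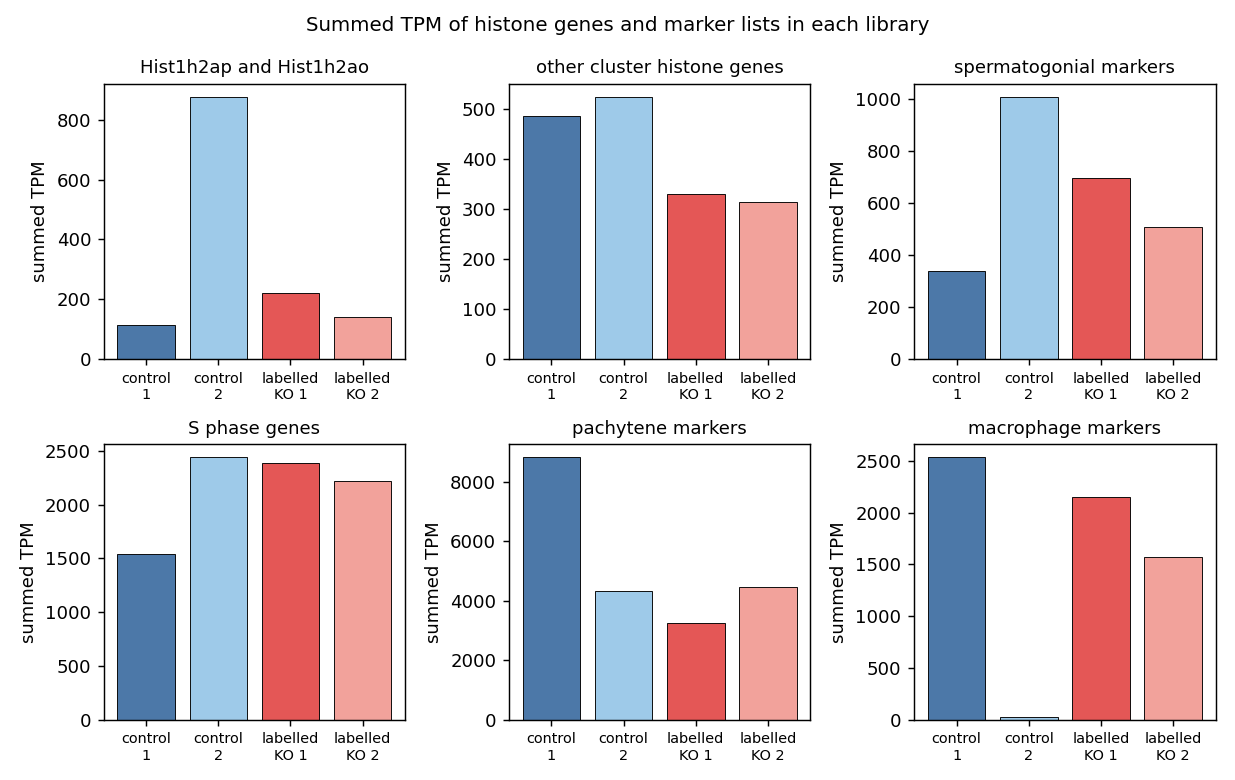
Summed TPM in each library (y axes, bars from 0) of *Hist1h2ap* with *Hist1h2ao*, the other 63 cluster histone genes, and spermatogonial, S phase, pachytene and macrophage gene lists. The other cluster genes are higher in both controls (486 and 525 TPM against 330 and 314 TPM), whereas *Hist1h2ap* with *Hist1h2ao* and the spermatogonial markers are highest in control 2, which has the fewest macrophage transcripts.

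The 4 libraries can also be set against each other in pairs, as the median difference in log2(TPM + 1) of the tested genes. From control 1 to the KO-labelled libraries 1 and 2, the cluster genes differed by -0.077 and -0.23, and from control 2 by -0.60 and -1.03. From control 1 to control 2 they differed by 0.78, which lies within the range of the sizes of these. All 4 differences between groups were negative for the cluster genes, whereas for all genes tested they were positive, at 0.17, 0.13, 0.45 and 0.43. For the replacement genes they were 0.18 and 0.16 from control 1 and -0.15 and -0.19 from control 2, and for the testis-specific genes -0.23 and 0.036, and -0.49 and -0.065.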

How the data were processed

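RNA-seq was made of GFP-positive cells from testes at postnatal day 18, with 2 libraries labelled *Zfp541*+/- (controls) and 2 labelled *Zfp541* KO, sequenced as single-end reads of 75 bases. The authors deposited TPM for each gene and library. The submitters' processing notes name Trim Galore 0.5.0, cutadapt 1.16, STAR 2.6.0a, RSEM 1.3.1 and the build mm10. TPM keeps no depth, and precision due to depth is unknown. RSEM, the study's tool for differential expression, needs counts that were not used here.

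With limma 3.58.1 in R 4.3.3, log2(TPM + 1) was fitted by genotype for genes whose mean reached 1 TPM. The variance prior followed a trend with the mean level, and the FDR was set at 0.05 (Benjamini-Hochberg). Fold changes on this scale understate those of low genes. The procedure was tested on simulated data. Samples were grouped by label. The histone genes, the lists and the genes named were chosen with earlier results of these data known. Named were the 3 testis-specific genes, the replacement variants, the 3 highest cluster genes of each class, the 5 histone genes with the highest and the 5 with the lowest log2 fold change, *Slbp*, *Npat* and the 3 largest changes of each pathway list. A gene that this rule names is not reported here. Genes named beyond these were chosen after their values were seen. Lists covered histone mRNA processing, chaperones, S phase, histone genes outside the rule, and 10 cell types. Of the cell type lists not described further, Sertoli genes summed to 830 and 718 TPM in control libraries and 1085 and 768 TPM in KO-labelled libraries, peritubular genes to 12.3 and 18.7 and to 24.7 and 18.5, red blood cell genes to 71.5 and 20.3 and to 29.7 and 280.2, and elongating spermatid genes to 20.4 and 9.05 and to 15.5 and 17.4. No gene of any list passed the FDR. There were 27 rows in which a date stands for the symbol, and these were given no name.

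Gene models, stem-loops and shared windows of 75 bases came from GENCODE vM21 (GRCm38), all 81 symbols having matched, not from the UCSC annotation that the authors used. For each gene the longest coding transcript was read. *Hist1h2bp* held the stem-loop only in another transcript. As alternatives, the pseudocount, filter, scaling and trend were varied, a replicate block was added, and each library was left out in turn. Other data types of the study were not used here.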

Additional observations from a re-analysis of the deposited data

How the results depend on the processing

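Every comparison was limited to 2 libraries in each group, and depth, which TPM does not keep, could not be weighed. The gap between the controls was wide for some genes, such as *Hist1h2ap* (106 and 823 TPM). It was narrow for others, such as *Hist1h4c* (9.11 and 8.47 TPM). With all 4 libraries kept, no histone gene passed the FDR of 0.05 in any fit. The replicate numbers mark no shared animal, and same-numbered libraries deviated from their group means with a correlation of -0.16 across 14512 genes. With the replicate number as a block, 0 genes passed, the same as without it. With the numbers crossed, a setting chosen after the data were seen, 87 genes passed.

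Median-ratio scaling turned the log2 fold changes of *H1f0* (-0.11), *H2afv* (-0.080), *H2afy* (-0.078), *H2afz* (-0.32), *H3f3a* (-0.23), *H3f3b* (-0.085) and *Hist1h2aa* (-0.12) below 0, as it did the medians of all genes (-0.0044) and of the replacement genes (-0.23). The median of the cluster genes became -0.75, and the log2 ratio of the testis-specific sum went from -0.20 to -0.55. Quantile normalization took that ratio to -0.56, *Hist1h2aa* to -0.11 and the difference in testis-specific share to -0.16 percentage points. Without the filter the cluster median was -0.028. With a mean of at least 5 TPM, 6 histone genes had groups that did not overlap, and *Hist1h1t*, *Hist1h2aa*, *Hist1h4c* and *Hist3h2bb-ps* were not tested. The cause of these shifts was not tested.

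With each library left out in turn, the lone library of a group being assumed to vary like the other group, the genes past the FDR ranged from 0 to 7222, the histone genes among them from 0 to 17, and the histone genes whose groups did not overlap from 23 to 32. Log2 fold changes ranged from -0.45 to 0.94 for *H2afv*, -0.16 to 0.65 for *H2afy*, -0.17 to 0.19 for *H2afz*, -0.0065 to 0.19 for *H3f3a*, -0.038 to 0.31 for *Hist1h2aa*, -2.30 to 0.64 for *Hist1h2ap*, -0.48 to 1.90 for *Hist1h4i*, -0.27 to 2.54 for *Hist2h2aa2* and -0.59 to 0.10 for *Hist3h2a*. The log2 ratio of the cluster sum ranged from -1.48 to -0.25, the S phase median from -0.046 to 0.72 and the replacement median from -0.088 to 0.19. The log2 fold changes of the other genes recomputed, 22 in number, kept their sign in every alternative that gave a value.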
